A study of Mus musculus with 11 samples.

Results

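The ICV CD45.2 PBS library was compared with the ICV CD45.2 µ library, gene by gene. The pair was chosen by route, CD45 allele and title, and not by any measured value: these are the 2 CD45.2 libraries, of 11 libraries in the series, whose treatment is given as ICV. Of 24411 gene symbols, 12140 had at least 40 counts summed over the 2 libraries and were compared. Each library is the only 1 of its kind, so there is no replicate check. Differences are given as ratios with exact 95% intervals that cover counting error only and take reads as independent. Reads that carry no molecular identifier cannot be taken as independent molecules, so the intervals may be too narrow even for counting error.

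The study transplanted blood-forming stem and progenitor cells into mice in competition, by 3 routes: a vein (IV), the ventricles of the brain (ICV) or the fluid space around the lumbar spinal cord (ITL), in work on a mouse model of Alzheimer's disease. Myeloid cells were then sorted from the brain, and polyadenylated RNA was sequenced. Both libraries compared here came from mouse brain and share the cell type label of microglia-like cells, the CD45.2 genotype and the ICV treatment. They differ in their titles, which read PBS and µ. The labels expand neither word, and the PBS title names no cell population, whereas the other libraries are named µ or TAµ. Disease genotype, which CD45 allele marked the host, the cells given to each animal, sex, age and the number of animals behind a library are not in the labels.

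Microglia are the resident macrophages of the brain. They arise from early embryonic precursors, maintain themselves locally and carry the transcription factor gene Sall1 and a set of surface genes such as P2ry12 and Tmem119. Macrophages that descend from transplanted bone marrow can settle in the brain and take on much of this programme, but usually keep high Apoe and Ms4a7 and low Sall1. A myeloid sort from brain can also carry blood monocytes, neutrophils, progenitors and fragments of neighbouring glia, whose marker genes were therefore counted as well.

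The PBS library held 19611137 counts and the µ library 21282823, more than the 6090589 to 17048115 of the other 9, so that the upper limit behind a count of 0 was 0.151 CPM and 0.153 CPM (CPM are counts scaled to a common library total and for composition). Genes with at least 1 count numbered 14611 and 14668. The pre-ribosomal transcript Rn45s took 13.6% of counts in the PBS library and 21.8% in the µ library, within the 6.98% to 25.1% of the others. Xist, which coats the silenced X chromosome of female cells, was at 6054 CPM in PBS and 6960 CPM in µ, and Y-linked transcripts summed to 1 and 26 counts, against 22 to 7231 elsewhere. On these transcripts the pair was matched. The cell type label was set against the microglial markers. All 30 of them had counts in both libraries, which at this depth cannot decide whether the label holds.

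With genes of at least 40 summed counts, the library nearest to PBS was not µ, nor was PBS the nearest to µ. Among all 55 pairs of libraries, the PBS library and the IV CD45.1 TAµ library had the smallest share of genes differing by at least 2-fold, at 6.45% of 11786. The PBS library differed from ITL CD45.1 TAµ at 11.5% of genes and from ICV CD45.2 µ at 13.9%, which placed this pair 6th of 55. Its distance to the other CD45.2 libraries was 24.3% (ITL CD45.2 µ) and 47.5% (IV CD45.2 µ), and those to µ were 21.9% and 47.0%. The µ library was itself nearer to ITL CD45.1 TAµ (11.2%) and IV CD45.1 TAµ (12.4%) than to PBS. Libraries also differed in the number of genes with at least 1 count. It was 15492 in IV CD45.1 TAµ and 15485 in ITL CD45.1 TAµ, but 10477 in IV CD45.2 µ. Counts below 3 were set to 3 in these shares, and the part of gene detection in the ranking was not tested. With genes of at least 200 or at least 1000 summed counts, a minimum chosen after seeing the data, IV CD45.1 TAµ again came 1st, and the PBS and µ pair came 6th and 2nd. At 1000 counts PBS was thus the library nearest to µ. Individual genes nevertheless set PBS apart from IV CD45.1 TAµ: Sall1 was at 84.9 CPM against 2.09 CPM, Xist at 6054 CPM against 11.5 CPM, and Ctse, an aspartic protease gene, at 26.2 CPM against 194 CPM.

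**Figure D1:**
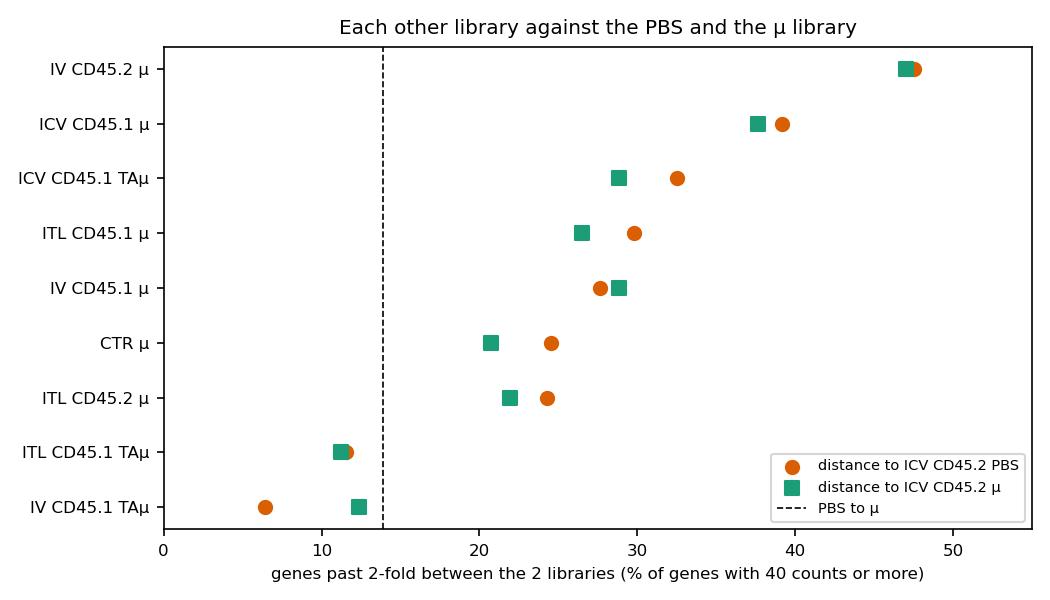
Share of genes (percent of those with at least 40 summed counts) that differed by at least 2-fold between each of the 9 other libraries and PBS (orange circles) or µ (green squares), with the dashed line at the share between PBS and µ, 13.9%. The point furthest left is PBS against IV CD45.1 TAµ at 6.45%, and in the 2 lowest rows all points lie left of the line.

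Between PBS and µ, 1689 of 12140 genes (13.9%) differed by at least 2-fold. Of these, 774 (6.38% of genes) were higher in PBS and 915 (7.54%) were lower, and 618 (5.09%) differed by at least 4-fold. The ratio was above 1 for 6120 genes, the median log2 ratio was 0.00, and 8826 genes (72.7%) lay within 1.5-fold. Ptprc, which encodes CD45 itself, was at 769 CPM in PBS and 661 CPM in µ, 1.16-fold higher in PBS (interval 1.14 to 1.19). The high end was led by genes of blood-forming cells and monocytes, histone genes and the nuclear RNA Neat1. The low end was led by genes of astrocytes, oligodendrocytes and other brain cells.

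**Figure D2:**
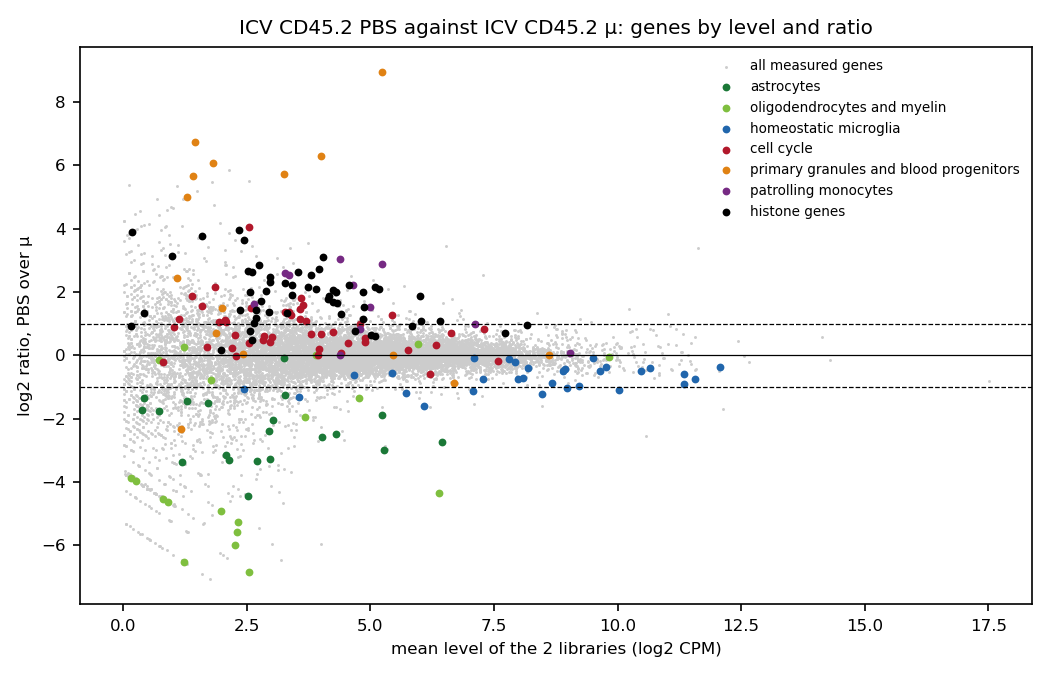
Log2 ratio of PBS over µ for each of the 12140 genes, against the mean level in log2 CPM, with members of 7 gene groups coloured. The plot is centred on 0, the spread narrows as the level increases, and 774 genes lie above and 915 below the 2-fold lines.

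Genes of resident microglia were lower in PBS. All 30 measured members of the homeostatic list lay below a ratio of 1, where 49.6% of all genes did, with a median log2 ratio of -0.68, and 8 were lower by at least 2-fold against 7.54% of all genes. Scaling by library totals put 27 members below 1 and 3 above, with 5 past 2-fold. In bulk samples, fewer cells of a type and less RNA per cell cannot be told apart. Summed over the list, the level was 18893 CPM in PBS and 28707 CPM in µ, and the other 9 libraries ran from 18616 CPM in IV CD45.1 TAµ to 64579 CPM in the CTR library.

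The microglial transcription factor gene Sall1 was at 84.9 CPM in PBS and 187 CPM in µ, 2.20-fold lower (2.08 to 2.33). The gene of the ADP receptor P2ry12, which steers microglial processes, was at 663 CPM against 1423 CPM, 2.15-fold lower (2.10 to 2.19). Its relative P2ry13 was at 328 CPM against 679 CPM. Both P2ry12 and P2ry13 were lowest of all 11 libraries in PBS, with IV CD45.1 TAµ next at 668 CPM and 348 CPM. Nav3, a neuron navigator family gene, had 34.0 CPM against 103 CPM, the largest difference of the list at 3.02-fold (2.77 to 3.30). Sparc, a matrix protein gene, had 214 CPM against 499 CPM, and the fructose transporter gene Slc2a5 had 32.0 CPM against 73.9 CPM. Neither PBS nor µ was extreme for these 3 genes, whose levels in the other libraries ran lower and higher.

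The fractalkine receptor gene Cx3cr1 was at 1823 CPM in PBS and 3389 CPM in µ, 1.86-fold lower (1.84 to 1.88), short of the 2-fold line. PBS was the lowest of the 11 libraries, the others lying between 1983 CPM and 5305 CPM. Other defining genes differed by less. Tmem119 was at 416 CPM against 567 CPM, and the growth factor receptor gene Csf1r at 3778 CPM against 4857 CPM. The lipid receptor gene Trem2 was at 250 CPM against 334 CPM, and the transcription factor gene Mef2a at 708 CPM against 753 CPM. PBS was lower than each of the 9 other libraries for 11 of the 30 members, against 2.73% of all genes.

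Genes that mark bone marrow-derived macrophages in the brain showed no common direction. Of 25 measured members, 13 lay above a ratio of 1 and 12 below, the median log2 ratio was 0.02, and 3 passed 2-fold. Apoe, the lipid carrier gene, was at 19223 CPM in PBS and 21230 CPM in µ, 1.10-fold lower, where the CTR library had 576 CPM. Ms4a7 was at 226 CPM against 194 CPM and the receptor tyrosine kinase gene Axl at 865 CPM against 771 CPM. The adhesion gene Vcam1 stood out within the list, at 176 CPM against 534 CPM, 3.04-fold lower (2.92 to 3.16), and the ectoenzyme gene Cd38 had 18.3 CPM against 57.3 CPM. Ctse differed by less than its counting interval, with 26.2 CPM and 25.5 CPM (ratio 1.02, interval 0.905 to 1.16). The other 9 libraries ranged for Ctse from 1.21 CPM in IV CD45.2 µ to 254 CPM in ICV CD45.1 TAµ, so PBS and µ lay close together in a wide spread.

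Activation and presentation genes were mostly within 2-fold, a line that 13.9% of all genes passed. None of 15 measured MHC class II genes and none of 17 MHC class I genes passed it, and of the 25 measured disease-associated microglial genes 2 were higher and none lower. Those 2 were the integrin gene Itgax, at 81.5 CPM in PBS against 30.7 CPM in µ, and the inhibitory receptor gene Lilrb4a, at 955 CPM against 465 CPM. The invariant chain gene Cd74 was at 3254 CPM against 2514 CPM and reached its highest level of the 11 libraries in PBS. Of 43 interferon-stimulated genes 1 was higher and 3 were lower. Of 29 measured genes on the list for inflammatory cytokines and chemokines 1 passed 2-fold in each direction. By summed level PBS ranked 10th and µ 9th from the lowest of 11 (10046 CPM and 8139 CPM). Of its 30 genes PBS lay above all 9 other libraries for 10, against 5.23% of all genes. For µ there were 6, against 3.57%. Between PBS and µ, the gene past 2-fold higher was Tnfaip2, at 166 CPM against 61.7 CPM, and the lower was the eotaxin gene Ccl24, at 1.21 CPM against 4.85 CPM. Of 22 complement and Fc receptor genes 14 lay below a ratio of 1 (12 with scaling by library totals), with a median log2 ratio of -0.19, and 3 were at least 2-fold higher and none lower. Among the 3, Fcgr4, an activating IgG receptor that blood monocytes also carry, was at 37.0 CPM against 8.84 CPM, 4.19-fold higher (3.55 to 4.97), and µ was the lowest of 11.

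Genes of primary granules and blood progenitors were higher in PBS for most of their list, Mpo among them with the largest fold of the named genes. These granules are made at the promyelocyte stage of neutrophil formation. Of 15 measured members 9 were at least 2-fold higher in PBS, against 6.38% of all genes, and 1 was lower, with a median log2 ratio of 2.43 in which a count of 0 was set to 3 counts. Several members were near the count minimum and passed it through the PBS library alone. With at least 200 summed counts, 3 members were higher, as were 310 of the 9633 genes then compared. Summed over the list, the levels were 678 CPM in PBS and 583 CPM in µ, most of it from abundant members that differed less.

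Mpo, which encodes the granule enzyme myeloperoxidase, had 1490 counts in PBS (75.2 CPM) and 0 in µ. It was at least 398-fold higher by the interval, and 490-fold with the 0 set to the limit of 3 counts. Elane, the neutrophil elastase gene, was at 31.7 CPM against 0.409 CPM, 77.6-fold higher (39.2 to 181). Prtn3, the proteinase 3 gene, was at 18.7 CPM against 0.358 CPM (52.3-fold, 25.2 to 131). These 3 granule enzyme genes were present in PBS and at or near 0 in µ. Ms4a3 had 97 counts and 0 (31.9-fold with the 0 set to the same limit) and Ctsg 103 counts and 2 (50.9-fold, 13.7 to 426). Myb, a progenitor transcription factor gene, had 137 counts and 2 (67.6-fold, 18.4 to 564). The stem cell factor receptor gene Kit was at 5.90 CPM against 2.10 CPM. In contrast, Cd34 was at 44.5 CPM and 43.8 CPM, Flt3 at 5.45 CPM and 5.31 CPM, and Sox4, the most abundant transcription factor gene of the list, at 73.0 CPM and 135 CPM.

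Among the other libraries Mpo was also high in ICV CD45.1 TAµ (106 CPM) and IV CD45.1 TAµ (33.7 CPM), and at most 7.90 CPM in the rest. Elane followed the same order, with 31.1 CPM and 12.1 CPM in those libraries and at most 1.39 CPM elsewhere. Mature neutrophil genes did not share the difference. Of 19 measured, 1 was higher and none lower by 2-fold, against 6.38% and 7.54% of all genes, and their median log2 ratio was -0.31. S100a9, an abundant calcium-binding protein gene of neutrophils, was at 795 CPM in PBS and 878 CPM in µ, and S100a8 at 506 CPM and 629 CPM.

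**Figure D3:**
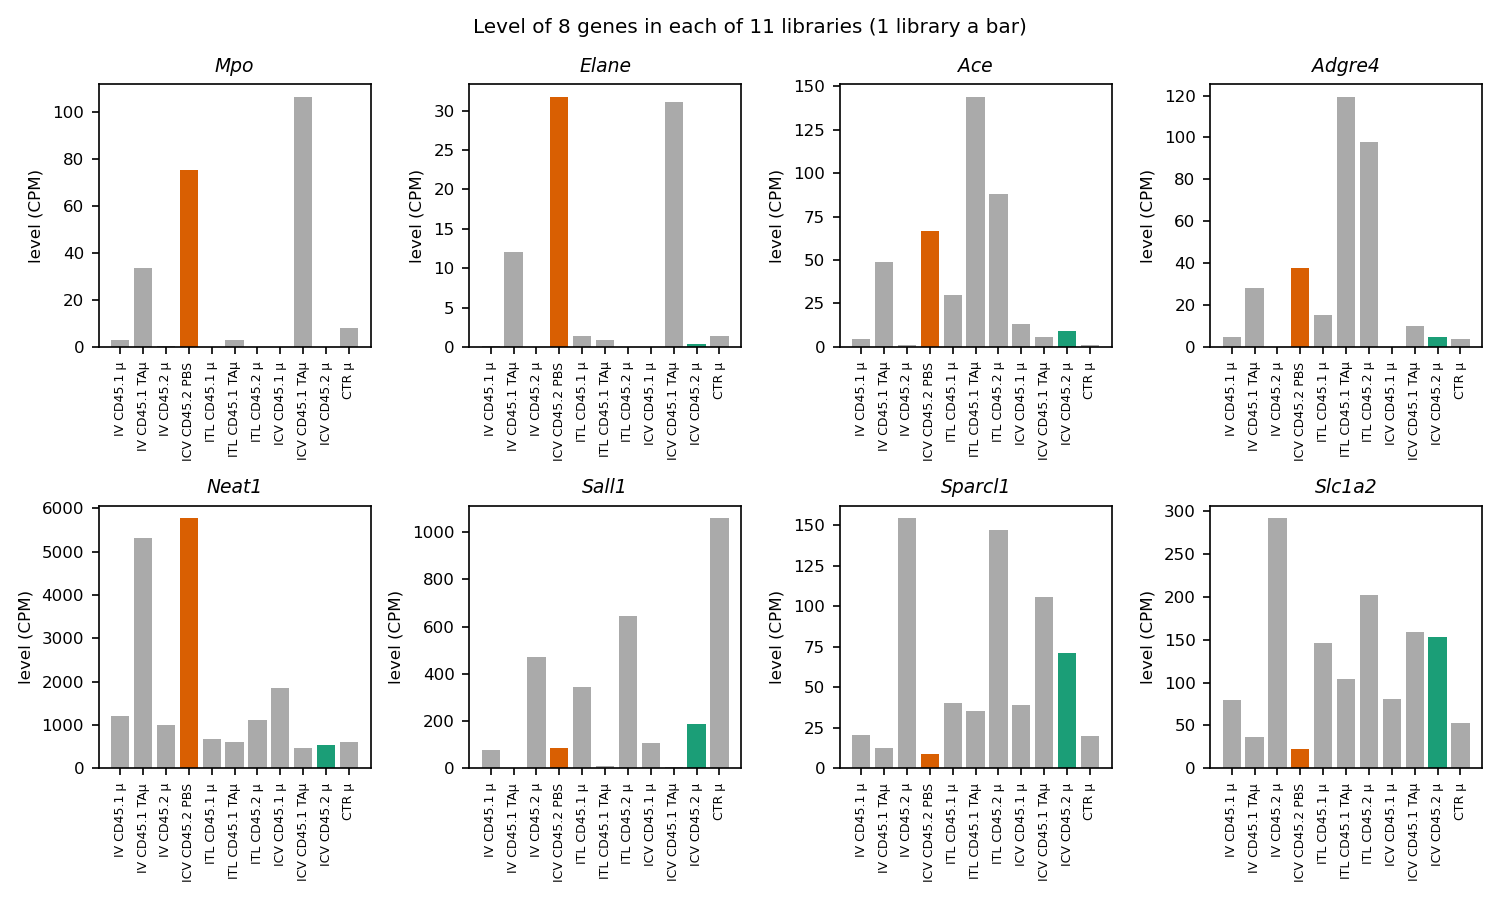
Level (CPM) of Mpo, Elane, Ace, Adgre4, Neat1, Sall1, Sparcl1 and Slc1a2 in each of the 11 libraries, 1 bar a library, with PBS in orange and µ in green. Mpo is at 75.2 CPM in PBS and 0 in µ, while Slc1a2 is at 22.9 CPM in PBS and 153 CPM in µ.

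Patrolling monocytes are the Ly6C-low blood monocytes that crawl along vessel walls. Of the 11 genes listed for them, all measured, 7 were at least 2-fold higher in PBS, against 6.38% of all genes, and none lower. The median log2 ratio was 1.62, and 10 genes lay above a ratio of 1 (11 with scaling by library totals). Ace, the angiotensin-converting enzyme gene, was at 66.8 CPM against 9.10 CPM, 7.34-fold higher (6.27 to 8.63). Adgre4, an adhesion receptor gene of these monocytes, was at 37.5 CPM against 4.60 CPM (8.15-fold, 6.54 to 10.3). Spn, the CD43 gene, was at 41.3 CPM against 8.79 CPM, Treml4 at 16.6 CPM against 2.76 CPM and Cd300e at 17.5 CPM against 3.02 CPM. PBS was 9th from the lowest of the 11 libraries for these 5 genes, and µ was 4th to 6th. Ace and Adgre4 were higher still in ITL CD45.1 TAµ, at 144 CPM and 119 CPM, and in ITL CD45.2 µ, at 88.1 CPM and 98.0 CPM. The transcription factor gene Nr4a1, on which patrolling monocytes depend, was at 539 CPM and 509 CPM.

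Classical monocyte genes differed by less. Of 16 measured, 2 were higher by 2-fold, against 6.38% of all genes, and 1 was lower, against 7.54%. The median log2 ratio was 0.56, and the summed levels were 1027 CPM and 1022 CPM. Ly6c2, their defining surface gene, was at 50.4 CPM in PBS and 21.3 CPM in µ (2.37-fold, 2.11 to 2.66). The coagulation factor gene F10 was at 9.99 CPM and 3.02 CPM, and the chemokine receptor gene Ccr2 at 72.0 CPM and 61.4 CPM. The lower member was Ly6c1, which endothelial cells also express, at 0.706 CPM and 7.31 CPM. The part of these blood cell genes in the lower microglial levels of PBS was not tested.

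**Figure D4:**
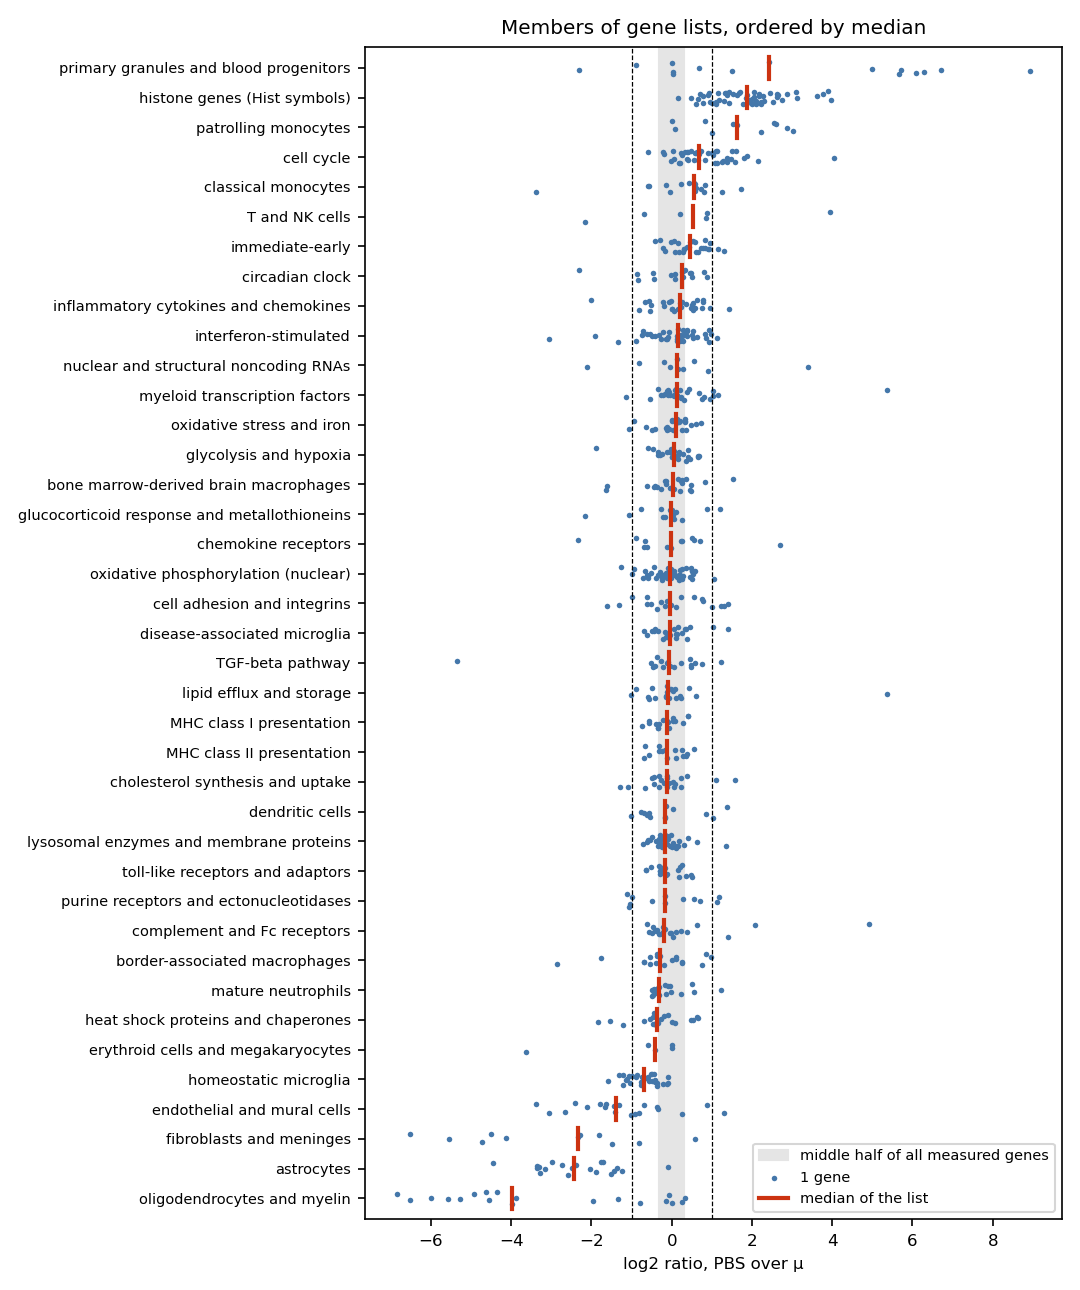
Log2 ratio of PBS over µ for the measured members of the gene lists, 1 point a gene, with the median of each list in red, dashed lines at 2-fold and a grey band over the interquartile range of all genes. Astrocyte, oligodendrocyte, endothelial and fibroblast genes lie to the low side (medians -2.44, -3.99, -1.39 and -2.34), progenitor and patrolling monocyte genes to the high side (2.43 and 1.62).

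Transcripts of other brain cells were lower in PBS. All 20 astrocyte genes were measured and lay below a ratio of 1 (19 with scaling by library totals), where 49.6% of all genes did. Of them 19 were lower by at least 2-fold, against 7.54% of all genes, and the median log2 ratio was -2.44. Their summed level was 89.3 CPM in PBS, the lowest of 11, and 463 CPM in µ, within the 110 CPM to 951 CPM of the other 9. Slc1a2, the main glutamate transporter gene of astrocytes, was at 22.9 CPM against 153 CPM, 6.67-fold lower (6.04 to 7.38). The gap junction gene Gja1 had 1.16 CPM against 11.9 CPM and the water channel gene Aqp4 0.858 CPM against 7.61 CPM. For Slc1a2, Gja1 and Aqp4 PBS was the lowest of the 11 libraries. Mfge8, which macrophages also make, differed little, at 9.23 CPM and 9.86 CPM. Sparcl1 and Ptprz1, genes of astrocytes and other glia outside the list, were also lowest in PBS, at 9.13 CPM against 71.2 CPM and 2.32 CPM against 17.9 CPM.

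Of 19 measured oligodendrocyte and myelin genes 13 were at least 2-fold lower, against 7.54% of all genes, and none higher. The median log2 ratio was -3.99, in which counts of 0 were set to 3. Mal, a myelin lipid raft protein gene, had 2 counts in PBS against 227 in µ (115-fold lower, 31.5 to 955), and Ermn and the transcription factor gene Sox10 had 0 counts against 188 and 44. Mal, Ermn and Sox10 passed the count minimum through µ alone, and the median rests partly on such members. Mbp and Trf did not follow. Mbp, the myelin basic protein gene, some of whose transcripts also arise in blood cells, was at 69.6 CPM in PBS and 54.9 CPM in µ, and the transferrin gene Trf at 884 CPM and 925 CPM. With at least 200 summed counts, 11 astrocyte and 4 oligodendrocyte genes were lower, as were 267 of the 9633 genes then compared. Ermn and Sox10 do not reach that minimum.

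Endothelial and mural cell genes were lower for 13 of 21 measured, against 7.54% of all genes, and higher for 1, with a median log2 ratio of -1.39. With at least 200 summed counts 6 were lower, as were 267 of the 9633 genes then compared. The tight junction gene Cldn5 was at 1.21 CPM against 3.83 CPM and the growth factor receptor gene Flt1 at 9.23 CPM against 22.8 CPM. Pecam1, the CD31 gene, which platelets and some leukocytes share with endothelium, went the other way, at 14.8 CPM against 6.03 CPM (2.46-fold, 1.98 to 3.07). Fibroblast and meningeal genes were lower for 9 of 11 measured, and for 2 with at least 200 summed counts. Several members near the count minimum passed it through µ alone. Of 20 neuronal genes 4 were measured, and their summed level over the list was 12.2 CPM and 25.4 CPM. Igfbp5, an insulin-like growth factor binding protein gene of several brain and mural cells, had 10 counts against 620, 62.8-fold lower (33.9 to 132). The share of these transcripts that came from intact cells in either sort was not measured.

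**Figure D5:**
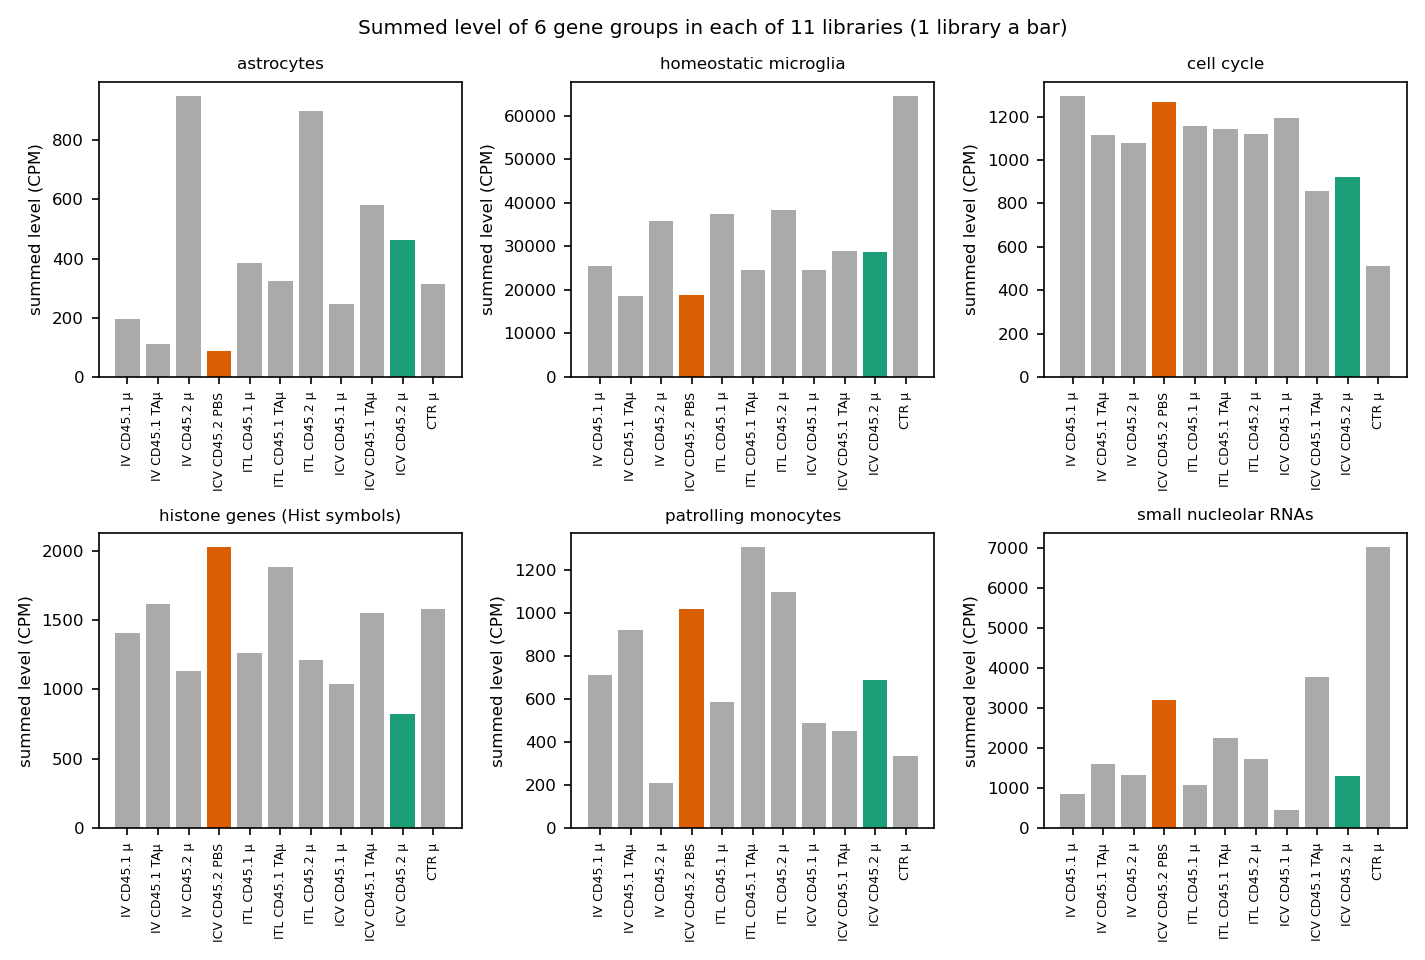
Summed level (CPM) of 6 gene groups in each of the 11 libraries, with PBS in orange and µ in green. PBS is lowest for astrocyte genes (89.3 CPM), and µ is lowest for histone genes (826 CPM).

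Genes of the cell division cycle leaned to PBS. All 45 listed genes were measured, 41 lay above a ratio of 1, 18 were at least 2-fold higher against 6.38% of all genes, and none was lower. The median log2 ratio was 0.69. With at least 200 summed counts 11 genes were at least 2-fold higher, as were 310 of the 9633 genes then compared. Top2a, the topoisomerase that untangles chromosomes in dividing cells, was at 61.2 CPM in PBS and 25.4 CPM in µ (2.40-fold, 2.16 to 2.67). The proliferation marker gene Mki67 was at 122 CPM against 75.4 CPM. The spindle checkpoint kinase gene Bub1 was at 11 CPM against 0.664 CPM, 16.6-fold higher (9.48 to 31.6), and its partner Bub1b at 18.8 CPM against 5.42 CPM. Bub1 and Bub1b were highest of the 11 libraries in PBS. The ribonucleotide reductase gene Rrm2 was at 17.6 CPM against 6.34 CPM. Among the most abundant members, the replication licensing gene Mcm3 was at 57.7 CPM and 51.0 CPM, and the cyclin genes of the G1 phase were at 178 CPM and 203 CPM (Ccnd1) and 58.5 CPM and 88.6 CPM (Ccnd2). PBS ranked 10th of 11 by the summed level of the list (1269 CPM) and µ 3rd (922 CPM), while the other 9 libraries ran from 513 CPM to 1297 CPM.

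Genes of mitosis are commonly controlled through a promoter element, the cell cycle genes homology region (TTTGAA), with CCAAT boxes near by. The 120 bases before the start are shown for the 4 cell cycle genes past 2-fold that hold both there, from the RefSeq promoter table of build GRCm38.p6. These are Top2a (chr11:99024190-99024309, minus strand), Cdk1, the mitotic kinase gene (chr10:69352913-69353032, minus), Cdc20, an activator of mitotic exit (chr4:118437344-118437463, minus), and Ube2c, its partner ubiquitin-conjugating enzyme gene (chr2:164769809-164769928, plus). Capitals mark TTTGAA and CCAAT on either strand (TTCAAA and ATTGG on the other strand).
Top2a: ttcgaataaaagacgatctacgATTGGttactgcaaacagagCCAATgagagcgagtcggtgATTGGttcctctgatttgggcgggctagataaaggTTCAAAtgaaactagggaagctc
Cdk1: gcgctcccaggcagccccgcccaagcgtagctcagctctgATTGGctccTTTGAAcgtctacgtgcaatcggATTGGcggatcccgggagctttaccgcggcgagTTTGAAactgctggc
Cdc20: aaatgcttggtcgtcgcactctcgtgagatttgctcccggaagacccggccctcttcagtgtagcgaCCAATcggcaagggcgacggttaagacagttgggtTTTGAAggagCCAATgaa
Ube2c: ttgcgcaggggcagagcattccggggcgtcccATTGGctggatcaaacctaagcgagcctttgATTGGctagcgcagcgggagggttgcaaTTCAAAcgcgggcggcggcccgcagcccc

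In these libraries Cdk1 was at 5.15 CPM in PBS and 2.50 CPM in µ, Cdc20 at 3.03 CPM and 1.38 CPM, and Ube2c at 8.93 CPM and 3.17 CPM. Searched over 250 bases before the start, TTTGAA was found on either strand in 16.3% of 27025 promoters, 1 per gene, and CCAAT in 34.5%. Promoters on chromosome 18 were left out of every search. Among the cell cycle genes past 2-fold, 14 of 18 had a promoter in the set searched, of which 42.9% (6) held TTTGAA and 92.9% (13) CCAAT. Among the other measured cell cycle genes with a promoter (23 of 27) the shares were 13% (3) and 73.9% (17). A match describes the letters only and shows no bound factor.

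Histone genes, defined by their Hist symbols after their values were seen, were all higher in PBS under every scaling tried. Of 68 such symbols 55 were measured, all 55 above a ratio of 1, against 50.4% of all genes. By at least 2-fold 45 were higher, against 6.38% of all genes, and the median log2 ratio was 1.87. These small genes supply histones during DNA replication, and most of their messages end in a stem-loop without a poly(A) tail. They took 0.205% of counts in PBS, above the 0.114% to 0.177% of the other 9 libraries, and 0.0760% in µ, below them. Hist1h2ac was at 29.5 CPM against 3.42 CPM (8.62-fold, 6.69 to 11.3), and Hist1h3c at 27.3 CPM against 4.09 CPM. Hist1h4d was at 101 CPM in PBS and 27.7 CPM in µ, where the other libraries had 48.8 CPM to 119 CPM, so that here µ was the library outside the range. The linker histone gene Hist1h1c, the most abundant, was at 378 CPM against 194 CPM. Copies of a histone type are nearly identical, and how reads were divided among them is uncertain. TTTGAA was in 43.9% and CCAAT in 82.9% of the 41 promoters found for the 45 genes.

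Other RNAs without a regular poly(A) tail differed as well. Of 78 measured small nucleolar RNAs, which guide the modification of ribosomal RNA, 38 were at least 2-fold higher and 3 lower in PBS. Over all genes the shares were 6.38% and 7.54%. The median log2 ratio of these RNAs was 0.98. Their share of counts was 0.324% in PBS and 0.120% in µ, inside the 0.0494% to 0.646% of the other libraries. Rn45s went the other way, at 134864 CPM and 237504 CPM. In PBS the share of Rn45s was thus lower, and the shares of small nucleolar RNAs and histone genes were higher. The part of RNA selection or quality in these differences was not tested. Cytosolic ribosomal protein genes, which are polyadenylated, had 1 of 79 past 2-fold and a median log2 ratio of -0.19 (-0.05 with scaling by library totals).

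Of 10 measured nuclear and structural noncoding RNAs, 1 was at least 2-fold higher in PBS and 1 lower, against 6.38% and 7.54% of all genes. The higher was Neat1, the scaffold of paraspeckles, at 5768 CPM in PBS and 551 CPM in µ, 10.5-fold higher (10.3 to 10.7). IV CD45.1 TAµ was close to PBS at 5327 CPM, and the other 8 libraries lay between 472 CPM and 1854 CPM. Malat1, its neighbour on the chromosome, was at 21385 CPM and 14487 CPM, a ratio of 1.48. Gas5, a snoRNA host gene named after its values were seen, was at 203 CPM and 108 CPM.

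Precursors of microRNAs were also read. Mir29b-1 was at 24.7 CPM in PBS against 2.10 CPM in µ (11.8-fold, 8.57 to 16.7), and Mir24-2 at 41.6 CPM against 7.36 CPM (5.66-fold, 4.73 to 6.80). PBS was the highest of the 11 libraries for both, followed by IV CD45.1 TAµ at 16.5 CPM and 30.6 CPM. Sequencing of polyadenylated RNA reads the primary transcript over the hairpin and not the mature microRNA. The hairpins are shown to give the stretch counted, with the mature arms in capitals, from the RefSeq table of build GRCm38.p6. Mir29b-1 lies at chr6:31063023-31063093 on the minus strand and Mir24-2 at chr8:84208815-84208921 on the plus strand, where it overlaps Mir3074-2, so reads of the latter pair may not be separable.
Mir29b-1: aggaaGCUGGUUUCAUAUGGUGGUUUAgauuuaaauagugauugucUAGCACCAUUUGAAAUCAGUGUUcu
Mir24-2: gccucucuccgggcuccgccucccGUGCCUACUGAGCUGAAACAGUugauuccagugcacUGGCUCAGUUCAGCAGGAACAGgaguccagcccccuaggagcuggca

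Mir6236 went the other way, at 447 CPM in PBS and 2621 CPM in µ, 5.86-fold lower (5.73 to 5.99). It overlaps a predicted gene, Gm39429, and µ was the highest of 11 with ICV CD45.1 TAµ next at 2596 CPM. Lars2, the mitochondrial leucyl-tRNA synthetase gene, was at 2118 CPM against 6833 CPM. Both followed the pre-ribosomal transcript Rn45s in direction. Among the 9 other libraries, Rn45s, Mir6236 and Lars2 were each lowest in ICV CD45.1 µ and highest in ICV CD45.1 TAµ. The part of ribosomal RNA reads in the levels of Mir6236 and Lars2 was not tested.

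Immediate-early genes, the first to be transcribed after a stimulus or during tissue dissociation, were above a ratio of 1 for 23 of 28 in PBS, against 50.4% of all genes, with a median log2 ratio of 0.45. The 2 past 2-fold were Fosb, at 2958 CPM against 1205 CPM (2.45-fold, 2.42 to 2.49), and Klf2, at 831 CPM against 375 CPM. These 2 of 28 are close to the 6.38% of all genes, and with scaling by library totals 5 passed. Zfp36, which encodes a factor that destabilises cytokine messages, was at 2976 CPM against 1664 CPM, and Fos at 3607 CPM against 2432 CPM. Of 20 heat shock genes 14 lay below a ratio of 1, against 49.6% of all genes, and 3 were at least 2-fold lower, against 7.54%. The small heat shock protein gene Hspb1 was at 70.1 CPM in PBS and 204 CPM in µ, and the mitochondrial chaperonin gene Hspe1 at 52.2 CPM and 121 CPM, both highest of 11 in µ.

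Most other groups of genes differed little. Of 41 lists, 38 had at least 5 measured members, and 28 of these had a median log2 ratio between -0.5 and 0.5. Nuclear genes of oxidative phosphorylation had 2 of 55 past 2-fold, against 13.9% of all genes. Their median was -0.05, which became 0.09 with scaling by library totals. Genes of lysosomal enzymes and membrane proteins had 1 of 35, with a median of -0.17 (-0.03 with scaling by library totals), and glycolysis and hypoxia genes had 1 of 28, with a median of 0.06. Border-associated macrophage genes had 2 of 19 lower and none higher by 2-fold, against 7.54% and 6.38% of all genes. Of these 19, 7 lay above a ratio of 1 and 12 below. Mrc1, their mannose receptor gene, was at 1036 CPM in PBS and 1507 CPM in µ, and Lyve1, a hyaluronan receptor gene, at 14.8 CPM and 7.46 CPM. T and NK cell genes were scarce in both libraries, with 6 of 23 listed genes measured and summed levels of 33.2 CPM and 35.8 CPM.

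A few genes of the largest differences belonged to none of these groups. Erdr1, which lies in the pseudoautosomal region shared by X and Y and has near-identical copies, was at 263 CPM in PBS and 45.4 CPM in µ (5.80-fold, 5.40 to 6.24). The other 9 libraries had 12.3 CPM to 56.9 CPM, and among annotated genes with a mean of at least 10 CPM this was the gene on which PBS stood furthest above all of them. Mid1, a ubiquitin ligase gene that crosses the boundary of the same region and was named after its values were seen, was at 134 CPM against 42.8 CPM. Fam71a was at 170 CPM against 15.7 CPM, with 165 CPM in IV CD45.1 TAµ. Ikbke, a kinase gene of interferon signalling, was at 19.2 CPM against 2.56 CPM, and Dock5, an activator of the GTPase Rac, at 56.1 CPM against 10.8 CPM. On the low side, the orphan receptor gene Gpr165 was at 5.95 CPM against 38.2 CPM, where all other libraries had at least 18.1 CPM, so PBS stood alone below. The membrane skeleton gene Epb4.1l3 was at 9.49 CPM against 69.5 CPM, with PBS lowest and µ highest of 11. Of the 30 genes with the largest differences, 13 overlap another annotated gene in RefSeq, Mpo, Ace and Slc1a2 among them, and reads of overlapping genes may not be separable.

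Each library of the pair was also set against the others. Genes were kept by their counts in this pair alone, so genes high in it enter more readily. An excess of genes above the other libraries is thus partly built in. Of the 2 other CD45.2 µ libraries, IV had the fewest genes with a count of all libraries (10477). ITL had the fewest counts (6090589). PBS lay more than 1 log2 unit above both other CD45.2 µ libraries for 1147 genes (9.45%) and below both for 601 (4.95%). For µ the counts were 1058 (8.71%) and 418 (3.44%). Beyond all 9 other libraries by that margin were 23 genes (0.189%) above and 16 (0.132%) below for PBS, and 30 (0.247%) above and 2 (0.0165%) below for µ. The 16 included Gpr165 and Aplp1, an amyloid precursor-like gene, and the 2 included Hist1h2bb, at 24.4 CPM in PBS and 5.67 CPM in µ against 13.9 CPM or more elsewhere. By any distance PBS lay above all 9 for 5.23% of genes and below them for 2.73% (and was the lowest of all 11, ties included, for 2.96%), and µ lay above all 9 for 3.57% and below them for 1.77%. For most genes both libraries were inside the range of the others. IV CD45.1 TAµ lay nearer to PBS than to µ for 546 of the 774 genes higher in PBS (70.5%) and 631 of the 915 lower (69.0%), against 60.0% of all genes compared. The low side was not particular to it. IV CD45.1 µ lay nearer to PBS for 69.6% of the lower genes, against 51.6% of all, but for 40.4% of the higher. ITL CD45.2 µ lay nearer to PBS for 43.7% of the higher and 27.8% of the lower genes, against 44.1% of all genes.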

How the data were processed

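The authors deposited raw counts: whole-number reads per gene symbol, 1 headerless table per library, each with the same 24411 symbols, 0 rows naming no gene and 0 columns left over. Per the submitters' processing notes, reads were aligned with STAR to mm39 (GRCm39). The STAR version, annotation and strand setting were not given in the sources used here.

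Counts were scaled to CPM by TMM over 11 libraries (Python 3.11.15, numpy 2.4.6, pandas 2.3.3, scipy 1.17.1, figures in matplotlib 3.10.9). Genes with at least 40 counts over the pair were compared, and ratios of at least 2 were counted. Intervals are exact conditional binomial ones at 95%, and a count of 0 was set to 3. No test was run, as each group had 1 library. The calculation was tested on simulated data. Levels against other libraries used log2 CPM with a prior count of 2.

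Named genes are the 15 each way with the largest fold by the interval bound nearest 1, at a mean of 10 CPM or more, without predicted genes, small nucleolar RNAs and sex-linked check genes. To these came up to 6 members of each list by level and by fold (mean of 5 CPM or more), and Ptprc, Cx3cr1, Trem2, Apoe and Ctse. Some genes that the rule names are not reported here. List members with a mean below 5 CPM, Tmem119, Ms4a7, Mfge8, Top2a, Cdk1, Cdc20, Lars2, Hist1h1c, Hist1h4d and Hist1h2bb, and the levels printed for other libraries, were chosen after values were seen. The 41 lists hold 889 genes, of which 874 are in the tables and 758 were measured. The lists, the rules and the pair were chosen with earlier results of these data known. Of the 30 genes, 30 matched RefSeq (GRCm38.p6), from which sequences came, and no coordinates were converted. Alternatives changed the scaling, the count minimum, the fold and the prior count.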

Additional observations from a re-analysis of the deposited data

How the results depend on the processing

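Of 416 values under the 10 alternatives and the added pair minimums, 373 stayed within their margin, 43 moved and 0 reversed. The balance of higher and lower genes, 774 and 915, did turn, with library totals (971 and 795) and with at least 200 counts (310 and 267). Scaling by library totals moved all log2 ratios by 0.14, changed the sign of 10 list medians (from -0.12 to -0.02 before), put 5 homeostatic genes past 2-fold and set Xist at -0.065. Without a minimum beyond 1 count, 3639 genes passed (1568 higher, 2071 lower); 2227 genes of PBS and 2136 of µ lay above the other CD45.2 µ libraries, 188 and 254 above all 9, and 4 of µ below all 9, and PBS lay outside the other CD45.2 µ libraries for 3043 genes, against 1748. With at least 200 counts, 577 of 9633 genes passed. Among these were 3 progenitor, 11 astrocyte, 4 oligodendrocyte, 6 endothelial, 2 fibroblast and 11 cell cycle genes. PBS then lay above the other CD45.2 µ libraries for 551 genes, below for 300 and outside for 851, and above and below all 9 for 2 and 6; for µ these were 470, 225, 1 and 1. Fewer genes enter at that minimum. By the interval bound 916 genes passed 2-fold (382 higher, 534 lower), and 618 passed 4-fold (210 and 408). At 1000 counts the pair ranked 2nd of 55. Of 245 values of named genes, 7 moved, all with library totals. No paired analysis was possible because each group had 1 library. With 1 library each, the spread between animals, sorts and preparations is unknown, and title, library preparation and animal cannot be told apart.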
